A study of Homo sapiens with 50 samples.

Results

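The nuclear-encoded subunits of the mitochondrial respiratory chain were examined in HepaRG cells, a line of human liver origin that, once differentiated, contains both hepatocyte-like and biliary-like cells. The rule that chose the genes uses their names and no measured value, although the set was proposed with earlier results of these data known. By it, 60 of the 79578 genes and assembled loci of the deposited table were members: 36 subunits of complex I, 4 of complex II, 8 of complex III and 12 of complex IV. NDUFA4 is named after complex I but is a subunit of complex IV, and was counted there. The 13 subunits encoded by mitochondrial DNA were not members.

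The respiratory chain lies in the inner mitochondrial membrane. Complex I (NADH dehydrogenase) and complex II (succinate dehydrogenase, which is also an enzyme of the citric acid cycle) pass electrons to ubiquinone, complex III (cytochrome bc1) passes them to cytochrome c, and complex IV (cytochrome c oxidase) passes them to oxygen. The electron flow through complexes I, III and IV pumps protons, and ATP synthase uses the gradient. Most subunits are encoded in the nucleus and imported, and liver cells, which oxidise fatty acids and amino acids, hold many mitochondria.

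The 3 herbicides were each tested at 0.1 uM, 10 uM and 1 mM from day 8 to day 14 of culture: mesotrione and isoxaflutole, which act in weeds on the tyrosine breakdown pathway, and quizalofop-p-ethyl, which acts in grasses on fatty acid synthesis. The group given no herbicide was the control. All 10 groups, of 5 libraries each, shared commercially differentiated cells (HPR 116) and a medium with 2% serum and 1% DMSO. Whether libraries of a group are separate cultures is not stated in the labels, and the p-values reflect just the spread among them, possibly technical.

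Levels are in FPKM (fragments scaled to transcript length and library size), summed over the transcripts of a gene, and can be compared between genes because they are scaled to length. In the 49 libraries compared, the estimated depth was 7200000 to 34080000 fragments, and 17016 to 20344 genes reached 1 FPKM. The library of replicate 5 in the group given 10 uM quizalofop-p-ethyl differed from all of these, with 6783 such genes, an estimated 3820000 fragments and 53.5% of its summed FPKM at ribosomal RNA, against 1.01% to 3.67% in the other libraries. It held 182.1 FPKM of complex I and 123.1 FPKM of complex IV members, and it was left out of the comparisons. Hepatocyte markers were abundant in control, where ALB (albumin) averaged 9420 ± 770.0 FPKM and the biliary marker KRT19 534 ± 42.0 FPKM (SD, n = 5 each). Sums of the leukocyte markers were 8.75 to 36.2 FPKM in control, and 3 of those 6 markers were under 0.1 FPKM in every library.

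The members were expressed at widely different levels. In control libraries, 6 members averaged 100.0 FPKM or more, 52 lay from 10.0 to 100.0 FPKM and 2 lay lower, with a median of 41.1 FPKM. Complex IV held the highest and the lowest level: COX4I1, a ubiquitous isoform of its largest nuclear-encoded subunit, averaged 202 FPKM, and COX7A1, the heart and muscle isoform next to the liver-type COX7A2, averaged 0.462 FPKM. COX7A1 stayed between 0.123 and 0.908 FPKM in the 49 libraries, and was the only member too low to be tested. COX7A2 averaged 58.7 FPKM in control.

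Within the other complexes the control levels ran in complex I to 96.2 FPKM for NDUFV2, a core iron-sulfur subunit of the NADH-binding arm, with the lowest level, 3.47 FPKM, for NDUFA9, an accessory subunit near the ubiquinone pocket. Complex II ran to 56.6 FPKM for SDHA, the flavoprotein that oxidises succinate, with 10.6 FPKM for SDHC, a membrane anchor. Complex III ran to 118 FPKM for UQCRQ, a small accessory subunit, with 13 FPKM for UQCRFS1, the Rieske iron-sulfur protein. For 58 of the 60 members the transcript with the highest mean was annotated as protein-coding.

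Summed per complex, the levels differed little between control and most exposed groups. Quizalofop-p-ethyl at 1 mM had the lowest mean for complexes I, II and III. Replicate 5 was the lowest library of that group in every complex (1133, 76.93, 286.3 and 991.6 FPKM for complexes I to IV). The highest libraries of that group had 1397 FPKM for complex I and 113 FPKM for complex II. The lowest control libraries had 1390 and 107.9 FPKM, so the groups overlapped. Complex I summed to 1453 ± 45.7 FPKM in control, and to 1496 ± 29.1, 1516 ± 38.1 and 1294 ± 116 FPKM at 0.1 uM, 10 uM and 1 mM quizalofop-p-ethyl (SD, n = 5, but 4 at 10 uM). Complex II summed to 125.7 ± 15.2 FPKM in control, and to 140.4 ± 15, 135.3 ± 11.4 and 97.49 ± 13.5 FPKM at the 3 concentrations. Within complex II, SDHD alone ran from 0.193 to 30.1 FPKM in control.

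Complex III summed to 360.6 ± 49.3 FPKM at 1 mM quizalofop-p-ethyl, against 402.7 ± 10.8 FPKM in control. The exposed libraries ran from 286.3 to 416.3 FPKM and overlapped those of control. Complex IV summed to 1117 ± 89 FPKM at 1 mM quizalofop-p-ethyl, against 1102 ± 38.7 FPKM in control. At 1 mM of the other compounds complex I summed to 1461 ± 19.4 FPKM with mesotrione and 1558 ± 29.8 FPKM with isoxaflutole, and complex IV to 1148 ± 63.8 and 1179 ± 35 FPKM with the same compounds (SD, n = 5 each). No test was made on these sums.

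**Figure D1:**
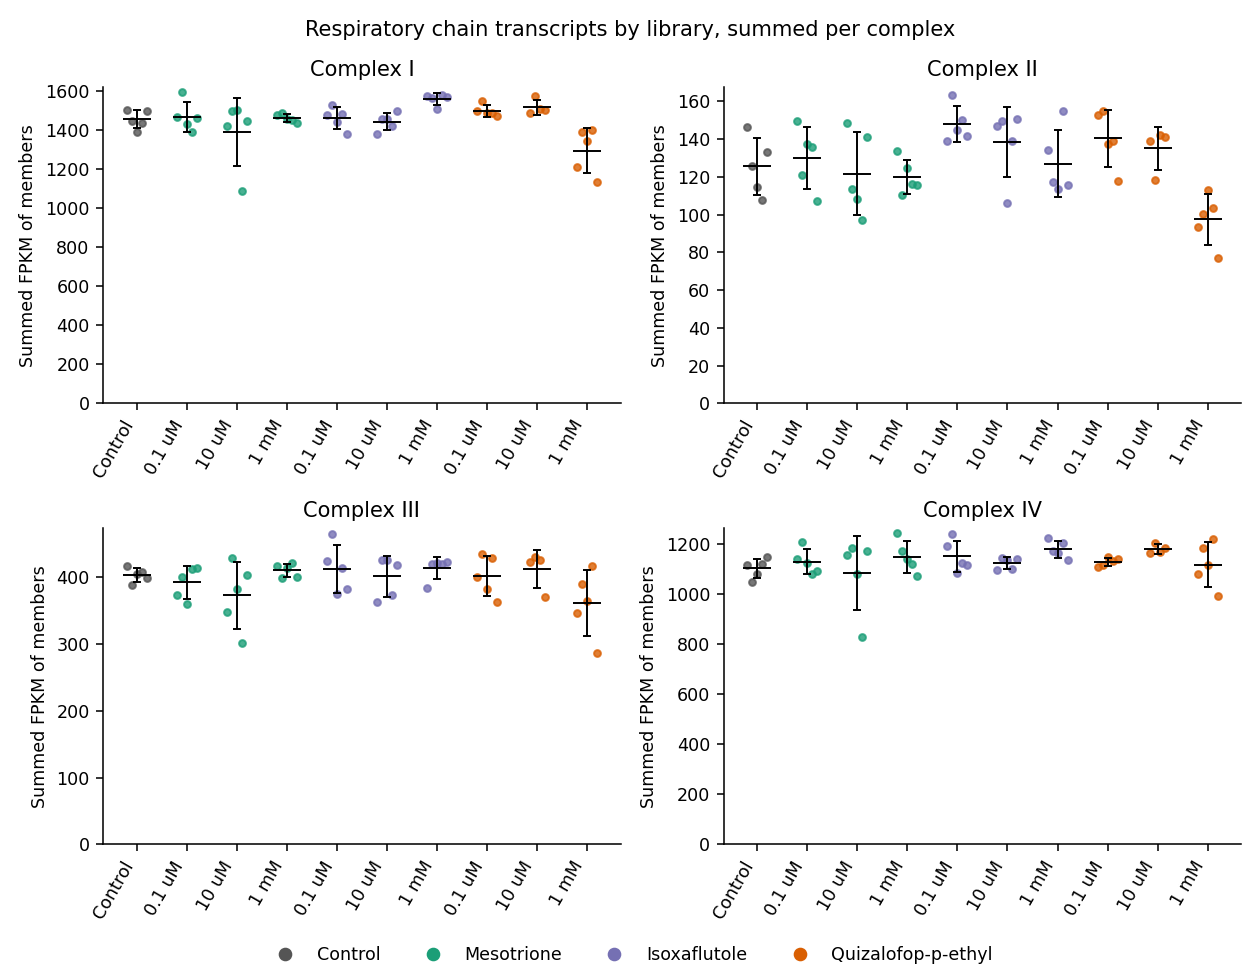
Summed FPKM of the members of each complex in every library (points), with the mean and SD of each group (bars), for control and the 3 compounds at rising concentration; all axes start at 0. The lowest means for complexes I, II and III are those of quizalofop-p-ethyl at 1 mM (1294, 97.49 and 360.6 FPKM), while complex IV had 1117 FPKM there and 1102 FPKM in control.

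Gene by gene, quizalofop-p-ethyl at 1 mM lowered 11 of the 59 tested members and raised 1, UQCRH. Those that fell were 9 subunits of complex I, with SDHA of complex II and UQCRQ of complex III, and no complex IV subunit passed the test. The test was limma on log2(FPKM + 1), two-sided, with Benjamini-Hochberg adjustment over all 24248 genes tested and a threshold of 0.05, and fold changes are on that log2(FPKM + 1) scale. In this comparison 32.7% of all tested genes were called, 13% higher and 19.7% lower, against 20.3% of the members. The share of members lower, 18.6%, was near that of all genes, and the share higher, 1.69%, was below it. Groups did not overlap for 1 member higher and 12 lower, where 9.1% and 14.8% of all genes did so. The median log2 fold change of all 59 was -0.09, beside -0.08 for all genes tested.

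These counts depend on how libraries are scaled and on the library left out. With median-ratio scaling 5 members were higher and 10 lower, 25.4% of the members beside 34.4% of all genes. With each library rescaled to the same sum outside mitochondrial and ribosomal RNA 0 were higher and 25 lower, 42.4% of the members beside 31.3% of all genes, so that the members' share then lies above that of all genes. The last scaling moves the median of all genes to a log2 fold change of -0.212, against -0.076 here. With the left-out library kept, 1 member was called, NDUFC2, beside 19.1% of all genes. That library is in neither group compared, and the log2 fold changes of the calls lost stayed the same. In bulk RNA fewer cells of a type and less RNA per cell cannot be told apart.

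Libraries of quizalofop-p-ethyl at 1 mM also differed in other respects whose part in the result was not tested. Their summed FPKM over all genes ran from 569268 to 801657, against 559096 to 665377 in control, and genes of the mitochondrial genome held 0.362% to 1.96%, against 0.426% to 0.572%. All 21 tested hepatocyte markers fell, with a median log2 fold change of -2.99, and the marker sum was 329.0 to 6670.0 FPKM, against 23000.0 to 28100.0 FPKM in control. Of the biliary markers 5 of 7 fell and the sum was 85.9 to 187 FPKM, against 638 to 729 FPKM in control. Of the stellate and mesenchymal markers 5 of 8 fell and 1 rose, with a sum of 50.8 to 238 FPKM, against 248 to 745 FPKM in control. The leukocyte markers summed to 2.72 to 15.6 FPKM, against 8.75 to 36.2 FPKM, and 2 of 3 fell. Lower sums were not particular to this compound. At 1 mM, hepatocyte markers summed to 15100 to 24800 FPKM with mesotrione and 12800 to 23100 FPKM with isoxaflutole. Biliary markers summed to 426 to 565 and 486 to 612 FPKM with these, below every control library. Sums of the stellate and mesenchymal and of the leukocyte markers overlapped control there.

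Among the core subunits of complex I, those shared with the bacterial enzyme that carry out electron transfer, 3 of 7 fell and the median log2 fold change was -0.30. Of all tested genes 19.7% fell, and their median was -0.08. NDUFV2 (chr18:9102630-9134345, plus strand, GRCh38) had 69.9, 60, 58.9, 66 and 36.4 FPKM at 1 mM quizalofop-p-ethyl, against 82.9, 90.7, 102, 94.9 and 110 FPKM in control. Every exposed library lay below every control library, and replicate 5 was the lowest. The log2 fold change was -0.74 (SE 0.11, adjusted p = 8.69e-07).

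NDUFS3 (chr11:47565336-47584562, plus strand), another core subunit of the arm that reaches into the matrix, had 23.8, 31.5, 35, 32.6 and 30.8 FPKM, against 38.8, 36.9, 37.5, 37.2 and 38.5 FPKM in control. The groups did not overlap, and the log2 fold change was -0.30 (SE 0.06, adjusted p = 0.000158). NDUFS7, a core subunit that carries the last iron-sulfur cluster before ubiquinone, also had groups that did not overlap, with means of 24.5 FPKM exposed and 29.4 FPKM in control, but did not pass the test (log2 fold change -0.25, adjusted p = 0.0952). The same held for NDUFB4, an accessory subunit of the membrane arm (-0.29, adjusted p = 0.3).

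Of the 11 subunits of the NDUFB family, accessory proteins of the membrane arm, 4 fell, beside 19.7% of all genes. Their log2 fold changes ran from -0.70 to 0.14 over the family. NDUFB3 (chr2:201071433-201085750, plus strand) had 11.5, 15.5, 18.7, 16.5 and 12.9 FPKM at 1 mM quizalofop-p-ethyl, against 24.3, 23.4, 26.8, 23.0 and 26.5 FPKM in control. The highest exposed library stayed under the lowest control library (log2 fold change -0.70, SE 0.12, adjusted p = 6.9e-06). NDUFB11 (chrX:47142216-47145504, minus strand) had 28.2, 32.3, 31.2, 33.1 and 23.3 FPKM, against 40.5, 36.5, 36.1, 45.2 and 39.7 FPKM in control, again without overlap (-0.41, SE 0.08, adjusted p = 5.05e-05).

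The other called genes of that family were NDUFB1 and NDUFB7. NDUFB1 (chr14:92116122-92121917, minus strand) had 18.8, 22.7, 26.9, 29.3 and 18.4 FPKM, against 35.8, 32.8, 39.9, 34.2 and 32.4 FPKM in control (log2 fold change -0.59, SE 0.20, adjusted p = 0.0203). NDUFB7 (chr19:14566078-14572062, minus strand) had 38.9, 46.7, 48.4, 52.1 and 42.7 FPKM, against 56.9, 55.0, 56.3, 60.7 and 55.3 FPKM in control (-0.31, SE 0.10, adjusted p = 0.0113). The groups did not overlap for either gene, but both calls were near the threshold. NDUFB1 was no longer called without replicate 1 or 5 of the exposed group or replicate 3 of the control (adjusted p of 0.0596, 0.0652 and 0.0504), and NDUFB7 without replicate 1 of the exposed group (0.0514) and with median-ratio scaling (0.0675).

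NDUFA1 (chrX:119871487-119876662, plus strand), an accessory subunit of the membrane arm, was the only gene called among the 12 of the NDUFA family counted with complex I. It had 33.3, 36.7, 32, 38.4 and 32.1 FPKM in the exposed libraries, against 46.7, 46.9, 46.7, 44.1 and 50.1 FPKM in control (log2 fold change -0.44, SE 0.08, adjusted p = 5.45e-05). NDUFC2 (chr11:78068304-78080219, minus strand), also of the membrane arm, had 21.8, 14.5, 12.3, 14.2 and 11.5 FPKM, against 20.4, 23.4, 21, 20.1 and 26.7 FPKM in control (-0.58, SE 0.14, adjusted p = 0.000703). Replicate 1 of the exposed group lay within the control range for NDUFC2, while NDUFA1 showed no overlap.

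The log2 fold changes of complex I had both signs. Of its 36 genes, 25 had a negative and 11 a positive log2 fold change, with a median of -0.13 beside -0.08 for all genes. In all, 9 of 36 (25.0%) were called, all lower, where 32.7% of all genes were called and 19.7% were lower. NDUFA6, a small accessory subunit, had the highest value, 0.27, and did not pass the test. NDUFV3, an accessory subunit of the NADH-binding arm, averaged 7.04 FPKM exposed and 10.3 FPKM in control, with a wide error (-0.72, SE 0.54), and did not pass either.

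**Figure D2:**
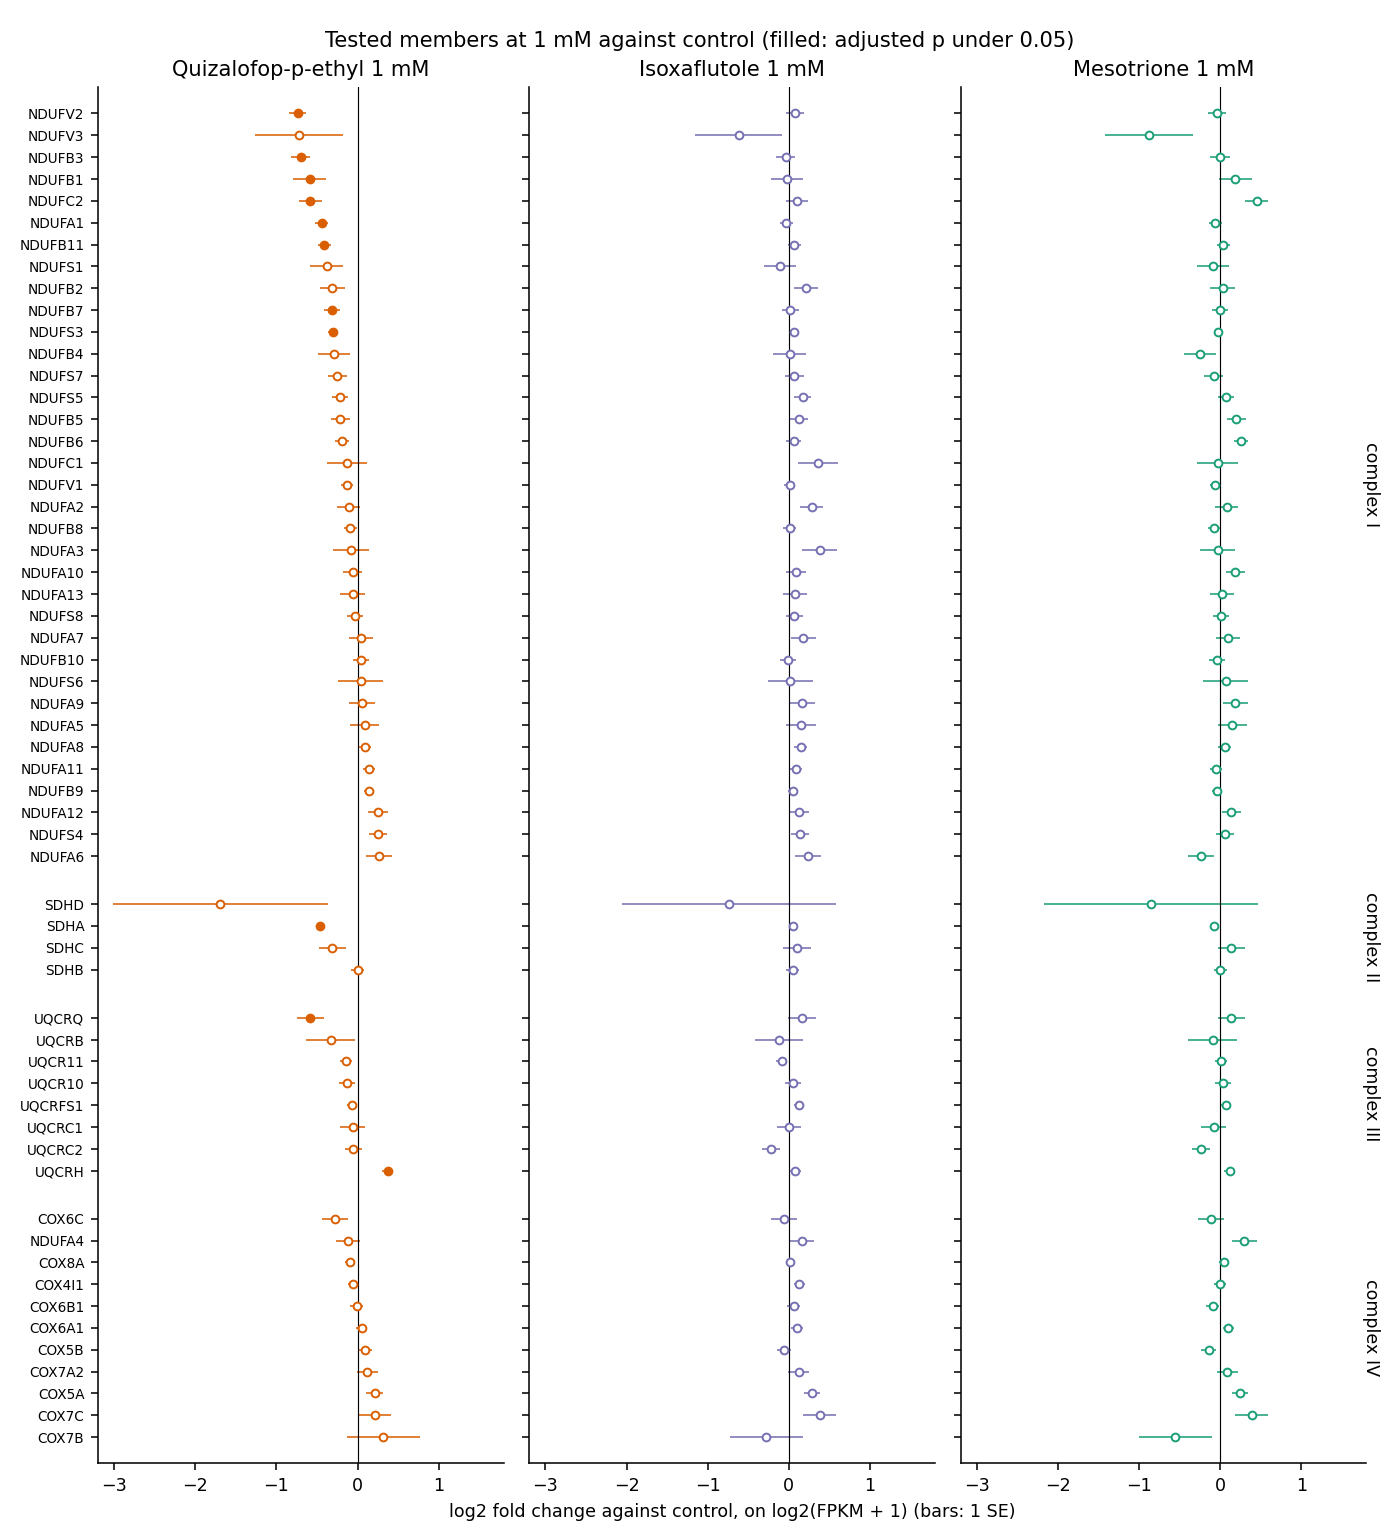
log2 fold change against control, on the log2(FPKM + 1) scale, of 58 of the 59 tested members (rows, ordered within each complex by the quizalofop-p-ethyl value) at 1 mM of each compound; bars are 1 SE and filled points have an adjusted p under 0.05. Filled points occur for quizalofop-p-ethyl alone, 10 below 0 and UQCRH above it, and none in complex IV.

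Succinate dehydrogenase gave the smallest adjusted p of all members. SDHA (chr5:218241-256700, plus strand) had 37.4, 43.7, 42.4, 44.8 and 36.5 FPKM at 1 mM quizalofop-p-ethyl, against 55.9, 57.1, 51.8, 59.4 and 58.7 FPKM in control. The groups were well apart (log2 fold change -0.46, SE 0.05, adjusted p = 1.18e-09). SDHA has 3 named pseudogenes, which held 3.78 FPKM together, and reads shared with them may be split. SDHB, the iron-sulfur partner of SDHA, had 46.3, 48.1, 43.6, 48 and 34.2 FPKM, against 41.9, 46.3, 44.8, 38.2 and 47.7 FPKM in control, and the groups overlapped (log2 fold change 0.00).

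The anchors of that complex varied more. SDHC had 9.34, 8.20, 8.27, 10.5 and 5.92 FPKM, against 13, 10.7, 11.2, 8.36 and 9.95 FPKM in control, with overlap and no call (log2 fold change -0.31). SDHD had 0.459, 0.466, 18.8, 0.349 and 0.379 FPKM, against 15.1, 0.641, 0.193, 27.3 and 30.1 FPKM in control (log2 fold change -1.69, SE 1.32, adjusted p = 0.36). Levels near 0 and levels above 15 FPKM occurred for SDHD in both groups, its leading transcript is annotated as a target of nonsense-mediated decay, and its value is uncertain.

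In complex III, UQCRH rose while UQCRQ fell. UQCRH (chr1:46303631-46316776, plus strand), the hinge protein that sits beside cytochrome c1, had 56.8, 66.9, 57.4, 62.4 and 54.4 FPKM at 1 mM quizalofop-p-ethyl, against 47.3, 45.9, 46.3, 41.8 and 47 FPKM in control (log2 fold change 0.37, SE 0.07, adjusted p = 4.46e-05). Each exposed library exceeded each control library. After rescaling outside mitochondrial and ribosomal RNA the log2 fold change of UQCRH was 0.16 and it was not called (adjusted p = 0.309).

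UQCRQ (chr5:132866560-132868031, plus strand) had 74.8, 82.2, 82.9, 105 and 55.3 FPKM in the exposed libraries, against 108, 122, 119, 117 and 127 FPKM in control, also without overlap (log2 fold change -0.58, SE 0.17, adjusted p = 0.0047). Some libraries of groups without a call lay as low: 72.6 and 75.4 FPKM with mesotrione and 71.6 FPKM with isoxaflutole at 10 uM. So did 79.3 FPKM with isoxaflutole at 0.1 uM and 75.1 FPKM with quizalofop-p-ethyl at 10 uM. The leading transcript held 48.7% of the gene's FPKM and averaged 44.0 ± 17.0 FPKM exposed and 59.7 ± 15.2 FPKM in control (SD). The fall of UQCRQ is therefore uncertain. The remaining 6 members of complex III, among them the core proteins UQCRC1 and UQCRC2 and the catalytic UQCRFS1, had log2 fold changes at or below 0 and none passed the test.

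In complex IV the 11 tested members had log2 fold changes from -0.28 to 0.32, with a median of 0.05 beside -0.08 for all genes. COX4I1 had 189, 205, 193, 205 and 180 FPKM, against 197, 205, 200, 201 and 204 FPKM in control, and the groups overlapped. COX5A, which lies on the matrix side of the complex, had 43.0, 56.5, 55.4, 54.8 and 39.3 FPKM, against 47.9, 42.4, 39.0, 40.7 and 42.8 FPKM in control (log2 fold change 0.21, adjusted p = 0.107). When unnamed transcripts assembled at a gene's locus were added, COX5A passed the test (log2 fold change 0.52, adjusted p = 0.000371). In all, 3 members were then higher and 12 lower, 25.4% of the members beside 43.4% of all genes.

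The promoters of SDHA and NDUFS3, which fell, and of UQCRH, which rose, are shown because nuclear respiratory factor 1 (NRF1), factors of the ETS family and YY1 are known to bind promoters of respiratory chain genes. Each sequence holds 250 bases before and 50 after a RefSeq gene start (GRCh38.p14), on the plus strand at chr5:218070-218369, chr11:47578824-47579123 and chr1:46303448-46303747, and capitals mark exact matches on either strand.
SDHA: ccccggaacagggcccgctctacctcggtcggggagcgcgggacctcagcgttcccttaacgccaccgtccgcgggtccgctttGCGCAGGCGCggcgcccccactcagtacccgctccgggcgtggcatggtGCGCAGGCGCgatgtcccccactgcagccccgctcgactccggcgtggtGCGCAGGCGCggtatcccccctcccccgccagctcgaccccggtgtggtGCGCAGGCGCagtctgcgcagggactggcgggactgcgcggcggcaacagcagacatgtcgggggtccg
NDUFS3: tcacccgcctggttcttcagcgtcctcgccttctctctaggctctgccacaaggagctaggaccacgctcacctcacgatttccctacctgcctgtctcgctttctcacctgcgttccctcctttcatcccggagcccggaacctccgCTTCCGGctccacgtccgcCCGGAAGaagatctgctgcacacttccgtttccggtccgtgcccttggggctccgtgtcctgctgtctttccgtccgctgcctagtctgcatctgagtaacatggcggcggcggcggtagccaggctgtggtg
UQCRH: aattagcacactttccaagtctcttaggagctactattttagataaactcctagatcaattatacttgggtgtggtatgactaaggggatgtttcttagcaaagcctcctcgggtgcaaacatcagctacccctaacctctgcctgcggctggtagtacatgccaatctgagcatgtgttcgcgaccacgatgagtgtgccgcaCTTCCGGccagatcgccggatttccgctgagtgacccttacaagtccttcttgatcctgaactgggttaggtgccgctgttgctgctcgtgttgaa
The capitals in SDHA are 4 matches to the NRF1 motif (GCGCA, any base, then GCGC), and those in NDUFS3 and UQCRH are 2 and 1 matches to the ETS motif CCGGAAG or its reverse complement. A match is a description of letters, not of binding.

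RefSeq promoter sequences were found for 50 of the 60 members, in 58 windows. The NRF1 motif occurred in 20.7% of these windows, against 5.78% of all 35116 promoters of the same length, the ETS motif in 25.9% against 10.3%, and the YY1 motif AAGATGGC in 15.5% against 2.89%. Any of the 3 motifs occurred in 51.7% of the members' windows and 17.0% of all. Of the 9 windows of members that fell at 1 mM quizalofop-p-ethyl 5 held a motif, as did 24 of the 48 windows of members not called. By motif, NRF1 was in 1 of the 9, that of SDHA, and in 11 of the 48. ETS was in 4 and 10, and YY1 in 0 and 9. Not every member that fell had a window.

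At the lower concentrations of quizalofop-p-ethyl no member was called, where 0 genes were called at 0.1 uM (0.0%) and 0.00825% of all genes at 10 uM. At an unadjusted p under 0.05 there were 4 members at 0.1 uM and 1 at 10 uM, 6.78% and 1.69%, beside 3.72% and 4.8% of all genes. The 12 members called at 1 mM had log2 fold changes from -0.16 to 0.29 at 0.1 uM (median 0.04), from -0.04 to 0.23 at 10 uM (median 0.04) and from -0.74 to 0.37 at 1 mM (median -0.50). These comparisons share the control libraries. SDHA was at 0.04 (SE 0.05) and 0.03 (SE 0.06) at the lower concentrations, and UQCRH at 0.19 (SE 0.07) and 0.13 (SE 0.08), none past the test. UQCRH was the only member whose libraries did not overlap those of control at 10 uM, where 1.53% of all genes lay higher without overlap.

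**Figure D3:**
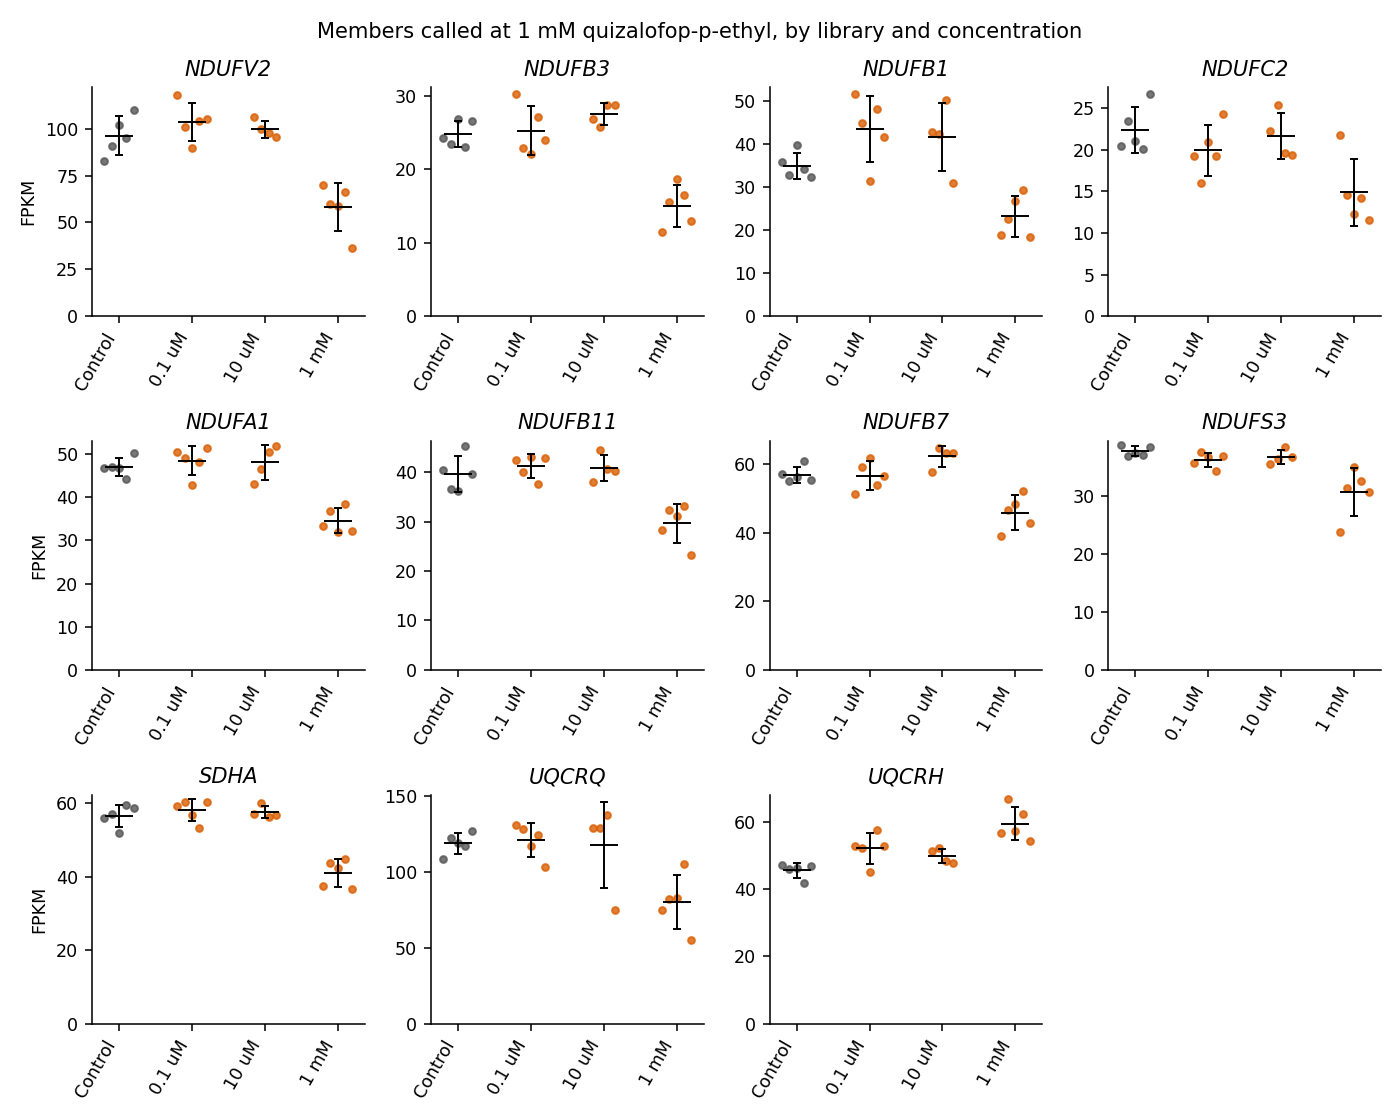
FPKM of 11 of the 12 members called at 1 mM quizalofop-p-ethyl in each library (points) of control and of 0.1 uM, 10 uM and 1 mM, with mean and SD; each axis starts at 0. At 1 mM every library of SDHA (36.5 to 44.8 FPKM) lies below every control library and every library of UQCRH (54.4 to 66.9 FPKM) above, while no member passed the test at 0.1 uM or 10 uM.

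Mesotrione at 1 mM changed none of the 59 members past the threshold, beside 0.878% of all genes. With limma, 4 members (6.78%) had an unadjusted p under 0.05, against 9.37% of all genes, and the smallest adjusted p was 0.131, that of NDUFC2. NDUFC2 had 30.2, 29.2, 25.0, 40.0 and 30.6 FPKM with mesotrione, against 20.4, 23.4, 21, 20.1 and 26.7 FPKM in control (log2 fold change 0.45, interval of 2 SE from 0.17 to 0.72), and the groups overlapped. COX5A was the only member whose groups did not overlap, at 51.1, 49.3, 48.6, 54.8 and 50.5 FPKM, against 47.9, 42.4, 39.0, 40.7 and 42.8 FPKM in control (log2 fold change 0.25, adjusted p = 0.336), where 1.06% of all genes lay higher without overlap. The median of the members was 0.01, beside -0.01 for all genes.

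Isoxaflutole at 1 mM also had 0 of 59 members called, where 2.41% of all genes were called, and 2 members (3.39%) had an unadjusted p under 0.05, against 12.6% of all genes. The smallest adjusted p was 0.146, that of COX5A, with 52.8, 50.5, 50, 49.6 and 57.3 FPKM with isoxaflutole against the control values just given (log2 fold change 0.29, interval of 2 SE from 0.09 to 0.49). Groups did not overlap for COX5A and COX4I1, both higher, and for UQCRC2, lower, where 2.45% and 2.40% of all genes did so. COX4I1 had 230.0, 220.0, 216, 223 and 213 FPKM with isoxaflutole, against 197, 205, 200, 201 and 204 FPKM in control. The members' median log2 fold change was 0.07, beside -0.01 for all genes, and 45 of 59 were positive. At 10 uM and 0.1 uM quizalofop-p-ethyl 45 and 44 of 59 were positive against the same control libraries. For isoxaflutole the members' median was 0.04 with median-ratio scaling, beside -0.028 for all genes. After rescaling outside mitochondrial and ribosomal RNA it was -0.01, beside -0.069.

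At 10 uM and 0.1 uM, mesotrione and isoxaflutole had 0 members called in each comparison, where 0 genes were called (0.0%). Members with an unadjusted p under 0.05 by limma numbered 1 and 1 for mesotrione at 0.1 uM and 10 uM (1.69% each, beside 4.22% and 3.06% of all genes). For isoxaflutole they numbered 4 and 3 (6.78% and 5.08%, beside 5.01% and 4.41% of all genes). The members' median log2 fold changes were 0.02 and -0.07 for mesotrione and 0.02 and 0.00 for isoxaflutole at the same concentrations. The median SE of a member was 0.12 in all these comparisons, so differences under 2 SE, or 0.24 on the log2 scale, were not detectable for a typical member. The adjustment over all 24248 genes asks for more, so larger differences could also be missed. UQCRH at 0.1 uM quizalofop-p-ethyl, at 0.19 with an SE of 0.07, did not pass.

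Set against each other at 1 mM, isoxaflutole and mesotrione did not differ past the threshold in any of the 59 members, where 0.256% of all genes did. By limma, 4 members (6.78%) had an unadjusted p under 0.05, beside 6.71% of all genes, among them NDUFC2 (-0.35, interval of 2 SE from -0.63 to -0.08), NDUFB6 (-0.19) and SDHA (0.11, from 0.01 to 0.22). NDUFA6 had the largest difference among them, 27.7, 31.9, 32.8, 29.5 and 30.1 FPKM with isoxaflutole against 17.2, 28.7, 28.9, 17.7 and 18.5 FPKM with mesotrione (log2 fold change 0.47, adjusted p = 0.397). The groups overlapped and the interval of 2 SE ran from 0.15 to 0.80, so the test does not show that the compounds act alike on this gene.

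Quizalofop-p-ethyl against isoxaflutole at 1 mM had 18 members lower and 1 higher, 32.2% of the 59, beside 29.7% of all genes. Of these calls 15 were in complex I, all lower, 1 in complex II and 3 in complex III. Of all genes 11.6% were higher and 18% lower, and without overlap 7.53% and 13.3%, beside 1 and 13 members. The members' median log2 fold change was -0.17, beside -0.05 for all genes. The shares called depended on the setting. With median-ratio scaling they were 25.4% of the members and 31.4% of all genes, and with the 2 groups alone 25.9% and 30.3%. After rescaling outside mitochondrial and ribosomal RNA they were 37.3% and 26.2%. NDUFV2 was lower with quizalofop-p-ethyl, at 69.9, 60, 58.9, 66 and 36.4 FPKM against 80.2, 116, 103, 101 and 109 FPKM with isoxaflutole (log2 fold change -0.82, SE 0.11, adjusted p = 1.35e-07). NDUFC2 (-0.68) and NDUFB3 (-0.66) were also lower.

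Outside complex I, SDHA averaged 40.9 FPKM with quizalofop-p-ethyl and 58.4 FPKM with isoxaflutole (log2 fold change -0.51, SE 0.05, adjusted p = 1.26e-10). In complex III, UQCRQ averaged 80.0 FPKM against 132 FPKM (-0.74), UQCRFS1 12.4 FPKM against 14.3 FPKM (-0.20) and UQCRH 59.6 FPKM against 48.2 FPKM (0.30). UQCRFS1 was lower here although it was not called against control, and its groups overlapped. No complex IV member was called, and the smallest adjusted p there was 0.0561, that of COX4I1.

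Quizalofop-p-ethyl against mesotrione at 1 mM had 16 members lower and 5 higher, 35.6% of the 59, beside 30.1% of all genes, of which 12.6% were higher and 17.6% lower. Groups did not overlap for 9 members, all lower, where 13% of all genes did so. NDUFC2 averaged 14.9 FPKM with quizalofop-p-ethyl and 31 FPKM with mesotrione (log2 fold change -1.03, SE 0.14, adjusted p = 5.4e-08), and the groups did not overlap. In complex I, NDUFB1 (-0.78), NDUFB3 (-0.71) and NDUFV2 (-0.71) followed. Against the majority of complex I, NDUFA6 (31.5 FPKM against 22.2 FPKM, 0.50), NDUFA11, an accessory subunit of the membrane arm (0.19), and NDUFB9 (0.18) were higher with quizalofop-p-ethyl, all with overlapping groups. NDUFA6 had 17.2, 28.7, 28.9, 17.7 and 18.5 FPKM with mesotrione. Some libraries of other groups lay about as low, at 18.5 FPKM in control and 17.6 FPKM with quizalofop-p-ethyl at 10 uM, so this call is uncertain.

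Complex II was lower in SDHA (40.9 FPKM with quizalofop-p-ethyl, 53.9 FPKM with mesotrione, log2 fold change -0.39) and SDHC (8.44 FPKM and 11.9 FPKM, -0.45, adjusted p = 0.0431). Complex III was lower in UQCRQ (-0.72) and higher in UQCRH (0.26). Complex IV had 1 call each way, COX5B, a zinc-binding subunit, at 113 FPKM against 95.1 FPKM (0.24, adjusted p = 0.0353), and NDUFA4 at 45.9 FPKM against 62.6 FPKM (-0.42, adjusted p = 0.0254). Both had overlapping groups. NDUFA4 had 54.3, 48.5, 45.3, 51.5 and 29.9 FPKM with quizalofop-p-ethyl, and 54.7, 56.1, 97.7, 50.7 and 53.7 FPKM with mesotrione. Its difference in means thus leaned on the libraries at 29.9 and 97.7 FPKM. These direct comparisons and the comparison with control share the quizalofop-p-ethyl libraries.

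Other mitochondrial genes gave a setting for these values at 1 mM quizalofop-p-ethyl. Beside the counts of each list, 13% of all tested genes were higher and 19.7% lower. The share of all genes called either way was 31.3% after rescaling outside mitochondrial and ribosomal RNA and 34.4% with median-ratio scaling. It was 33.9% with the 2 groups alone and 19.1% with the left-out library kept. For ATP synthase, the enzyme that uses the proton gradient, 16 genes were tested, 15 nuclear subunits and the inhibitor ATPIF1, of which 9 fell and 0 rose, with a median log2 fold change of -0.33. ATPIF1, which blocks the enzyme's reverse reaction, averaged 25.3 ± 4.08 FPKM exposed and 44.1 ± 2.59 FPKM in control (SD, n = 5 each; log2 fold change -0.79, adjusted p = 1.32e-07). ATP5D, of the catalytic head, averaged 41.7 ± 4.66 FPKM and 71 ± 11 FPKM (-0.75), and ATP5L (-0.72) and ATP5J2 (-0.61), of the membrane part, followed. The count of those lower was 11 after rescaling outside mitochondrial and ribosomal RNA, 7 to 11 with 1 library left out, 6 with median-ratio scaling, 5 with the 2 groups alone and 1 with the left-out library kept.

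Genes of mitochondrial protein import went the other way, with 10 of 21 higher and 0 lower (median 0.27), beside 13% and 19.7% of all genes. TIMM44, which tethers the import motor to the inner membrane channel, averaged 33.8 ± 2.99 FPKM exposed and 14.8 ± 0.383 FPKM in control (log2 fold change 1.14, adjusted p = 1.1e-13), and PAM16, a part of that motor, 23.9 ± 1.31 FPKM and 11.2 ± 1.59 FPKM (1.04). TIMM9, a chaperone of the intermembrane space, and TIMM17A, of the channel, were higher by 0.93 and 0.91 on the log2 scale. After rescaling outside mitochondrial and ribosomal RNA 6 were higher, and with the left-out library kept 4.

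Assembly factors of the respiratory chain were mixed, 8 of 46 higher and 7 lower, not far from the 13% and 19.7% of all genes. NDUFAF2, of complex I assembly, averaged 17.3 ± 2.42 FPKM exposed and 5.82 ± 0.490 FPKM in control (log2 fold change 1.42, adjusted p = 0.000955), followed by NDUFAF4 (0.72), COA7 (0.47) and COX10 (0.45), the last an enzyme of heme A synthesis. COA3, of complex IV assembly, averaged 24.1 ± 3.33 FPKM and 38.8 ± 2.05 FPKM (-0.68), followed by COX16 (-0.53), COA5 (-0.51) and FOXRED1 (-0.47). The split was 2 higher and 11 lower after rescaling outside mitochondrial and ribosomal RNA, 9 higher and 4 lower with median-ratio scaling, and 2 higher and 1 lower with the left-out library kept.

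Enzymes of the citric acid cycle were 3 of 13 higher and 4 lower. SUCLG2, a subunit of succinate-CoA ligase, averaged 13.6 ± 4.54 FPKM exposed and 33.7 ± 2.19 FPKM in control (log2 fold change -1.31), IDH3G was at -1.73, FH, which follows succinate dehydrogenase in the cycle, at -0.49 and SUCLG1 at -0.30. IDH3A (0.53) and OGDH (0.52) were among those higher. The split was 2 higher and 5 lower after rescaling outside mitochondrial and ribosomal RNA, 3 and 2 with the 2 groups alone, and 0 and 2 with the left-out library kept. Of 16 regulators of mitochondrial gene expression 5 were higher and 1 lower: TWNK, the helicase of mitochondrial DNA, at 1.01, ESRRA, a nuclear receptor of oxidative metabolism, at 0.76, PPRC1, a coactivator, at 0.68, and POLG, the DNA polymerase, at 0.49, against MTERF1 at -0.38. After rescaling outside mitochondrial and ribosomal RNA the regulators were 3 higher and 4 lower, and with the left-out library kept 2 higher and 0 lower.

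Regulators that did not pass the test included PPARGC1A at -0.33 (adjusted p = 0.333), TFAM at -0.47 (adjusted p = 0.0859) and NRF1 at 0.16 (adjusted p = 0.567). Of 9 tested further subunits and electron carriers, COX7A2L, which helps join complexes into supercomplexes (0.53), and CYCS, cytochrome c (0.31), rose and ETFB, of the electron transfer flavoprotein, fell (-0.83), while CYC1, cytochrome c1, was at 0.16 (adjusted p = 0.0862). Rescaled outside mitochondrial and ribosomal RNA, 0 of these 9 were higher and 2 lower, and with the left-out library kept or the 2 groups alone 0 were higher and 1 lower. At 1 mM of mesotrione or isoxaflutole, and at 0.1 uM and 10 uM of quizalofop-p-ethyl, none of these lists of nuclear genes had a member past the threshold.

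**Figure D4:**
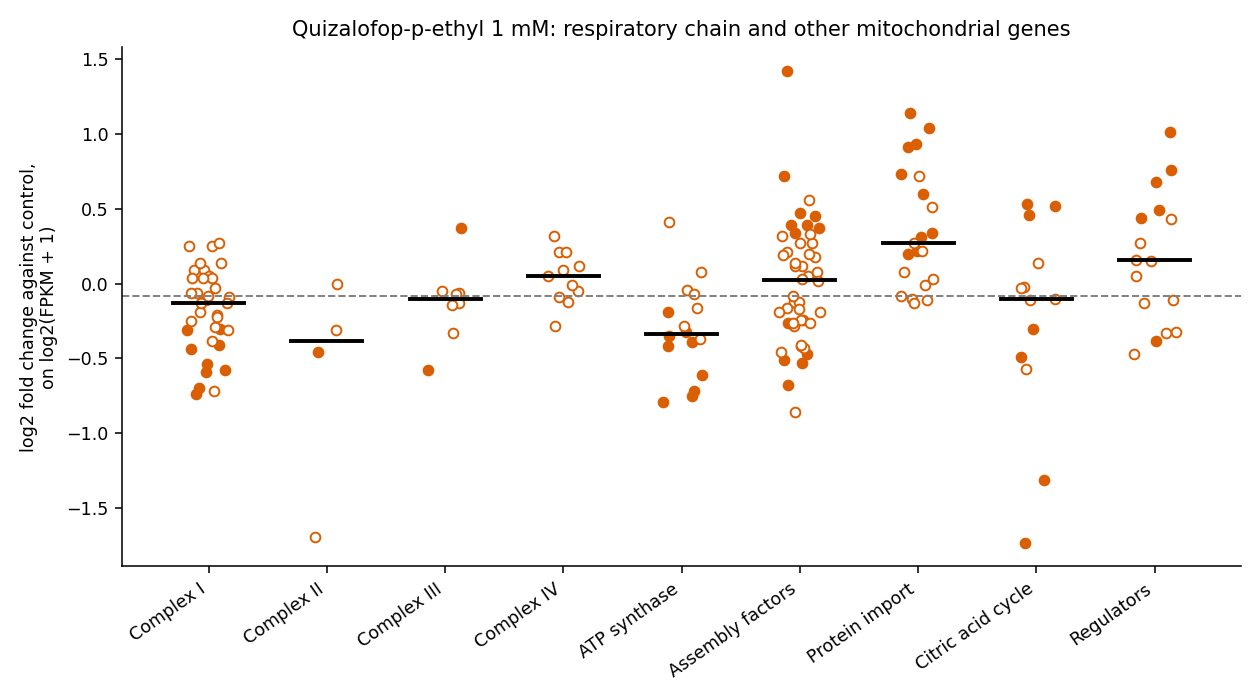
log2 fold change of 1 mM quizalofop-p-ethyl against control, on the log2(FPKM + 1) scale, of the tested members of complexes I to IV and of other mitochondrial gene lists; filled points have an adjusted p under 0.05, thick lines are medians and the dashed line is the median of all genes (-0.08). ATP synthase genes lie lowest as a list (median -0.33) apart from the 4 genes of complex II (-0.38), and import genes highest (median 0.27).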

How the data were processed

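RNA of 50 HepaRG libraries was sequenced. Per the labels' protocols, a stranded, ribosome-depleted library was made from total RNA and read as 75 bp pairs, in 3 pools whose membership is unknown here. HISAT, HISAT2, StringTie and GRCh38 stand in the submitters' processing notes, without versions or roles, and strand use in counting is not given. The authors deposited 1 table of FPKM for 239290 transcripts, with coordinates and lengths. FPKM divides by a library's fragments, so RNA that takes many fragments lowers other values. In some deposited columns 24 values lay slightly below 0, so these columns were treated as a score, and the 24 values were set to 0. One broken record was rejoined. Depth was estimated from the FPKM step of 1 fragment in single-exon transcripts of 300 to 1500 bp.

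FPKM were summed by gene name. The test took genes that reached 1 FPKM in 5 or more of 49 libraries, and used log2(FPKM + 1) in limma (version 3.58.1, under R 4.3.3; 1 mean per group over 49 libraries, trend and robust variance, Benjamini-Hochberg per comparison, threshold 0.05), in 9 comparisons with control and 3 between compounds at 1 mM. The fit was tested on simulated data. Python 3.11.15, pandas 2.3.3, numpy 2.4.6 and matplotlib 3.10.9 were used.

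The members, gene lists and tests were chosen with earlier results of these data known. Named members are, per complex, those highest and lowest in control, up to 3 that rose and 3 that fell most past the threshold at 1 mM, the 4 SDH genes, COX7A1, and members called against their complex's majority, and, in other lists, up to 4 each way. Others named (NDUFB1 and further genes called, NDUFB4, NDUFB6, NDUFS7, NDUFV3, COX5A, UQCRC2, and NDUFC2 and NDUFA6 outside their calls) were chosen after their values were seen. Some genes that enter the counts are not reported here by name. Alternatives were a pseudocount of 0.1, no filter, 2 scalings, the 2 groups alone, all 50 libraries, a replicate block, unnamed transcripts joined and each library left out. No 2 columns were identical, and correlations of libraries within a group were 0.885 to 0.931.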

Additional observations from a re-analysis of the deposited data

Results flagged for a closer look

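In 74 sets of libraries (a complex, all members or a member called at 1 mM quizalofop-p-ethyl, within 1 group), 8 held a library far from the others by Dixon's rule, which chance gives in about 1 set of 20. Replicate 4 of mesotrione at 10 uM was low, with 1085 FPKM summed over complex I, against 1421 to 1501 FPKM in the other libraries of its group, and 2313 FPKM over all members, against 3071 to 3223 FPKM. Replicate 3 of isoxaflutole at 1 mM had 1506 FPKM over complex I, against 1563 to 1580 FPKM, and replicate 1 had 383 FPKM over complex III, against 419 to 422 FPKM. Over complex II, replicate 3 of isoxaflutole at 10 uM had 106 FPKM, against 139 to 151 FPKM, and replicate 2 of quizalofop-p-ethyl at 10 uM had 118 FPKM, against 139 to 142 FPKM. Replicate 4 of quizalofop-p-ethyl at 10 uM had 370 FPKM over complex III, against 423 to 429 FPKM. Replicate 4 of the control had 41.8 FPKM of UQCRH, against 45.9 to 47.3 FPKM in the other controls.

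The library left out, replicate 5 of quizalofop-p-ethyl at 10 uM, held 53.5% of its summed FPKM at ribosomal RNA, against 1.71% to 2.46% in control.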

How the results depend on the processing

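No fold change of a member called at 1 mM quizalofop-p-ethyl against control reversed under the alternatives run. For 1 mM quizalofop-p-ethyl against control the 12 calls became 25 after rescaling outside mitochondrial and ribosomal RNA (31.3% of all genes called). Why the count rose was not tested. With all 50 libraries 1 call was left, and 2 and 1 against isoxaflutole and mesotrione. Of all genes 19.1%, 16.1% and 16.3% were then called. The added library lies in no group of these comparisons and enters them through the spread shared by all groups. Log2 fold changes of the lost calls against control stayed the same, -0.46 for SDHA and -0.74 for NDUFV2. Leaving out 1 library gave 11 to 15, 15 to 21 and 18 to 21 calls in these comparisons and 0 in the others. With each run of consecutive sample numbers as a replicate block, members called at 1 mM quizalofop-p-ethyl against control were 2 higher and 11 lower. These were 22.0% of the members, beside 33.7% of all genes. Over all genes the block moved the calls against control to 809 from 585 for isoxaflutole and to 343 from 213 for mesotrione at 1 mM. Correlations of deviations exceeded 0.1 in 13 of 216 pairs of libraries of the same run (median 0.0164) and in 13 of 864 pairs of other runs (median -0.00501). Each of the 5 runs holds 1 library of every group, the left-out library included. The labels name no batch shared by a run, so the main fit did not pair samples by these numbers. Not every pair of a run exceeded 0.1, but that cannot exclude a batch shared by a run. Ribosomal RNA took 2.08% to 3.67% of summed FPKM in libraries of the first run of numbers and 1.01% to 3.11% in the other runs, the left-out library aside. Rescaling outside mitochondrial and ribosomal RNA moved the mean log2 sum of complexes I, III and IV to -0.10, -0.08 and -0.05 relative to control for mesotrione at 1 mM and to 0.01, -0.05 and 0.01 for isoxaflutole, and that of complexes I, II, III and IV to -0.39, -0.58, -0.39 and -0.20 for quizalofop-p-ethyl. Depth is not in the table and was only estimated, so no counting error is given.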

Other observations

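SDHD, a membrane anchor of succinate dehydrogenase, was listed at 2 separate levels, and both occurred among the control libraries. In 20 of the 49 libraries it lay between 0.147 and 0.653 FPKM, and in the other 29 between 15.1 and 39.0 FPKM. Low libraries numbered 4 of 5 with quizalofop-p-ethyl at 1 mM, 3 of 5 with isoxaflutole and 3 of 5 with mesotrione at 1 mM, 0 of 5 with isoxaflutole at 0.1 uM, and 2 of 5 in control. The 3 named pseudogenes of SDHD held 9.27 FPKM together and unnamed transcripts at its locus 14.0 FPKM.

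Subunits encoded by mitochondrial DNA were often listed at exactly 0, which can be a failed estimate, so their differences between groups are uncertain. By limma with Benjamini-Hochberg adjustment, 2 of the 11 tested passed at 1 mM quizalofop-p-ethyl against control, beside 32.7% of all genes, and both had libraries listed at 0. MT-ATP8 was higher (adjusted p = 0.0204), listed at 0 in 2 of 5 exposed and all 5 control libraries, and MT-CO3 was lower (adjusted p = 0.00656), listed at 0 in 3 of 5 exposed and 0 control libraries. MT-CO1 was listed at 0 in 41 of 49 libraries and reached 6140 FPKM in another, while MT-CYB was at 0 in 4 and had a median of 857 FPKM.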
